A study of Oryza sativa and Triticum aestivum and Oryza sativa Japonica Group with 26 samples.

Results

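The regions described here are 21 centromeric zones of bread wheat, 1 on each chromosome, with the peaks of 2 histone marks that lie in them. Each zone reaches 10 Mb to either side of a centre that was given in Mb for each chromosome, so a zone spans 20 Mb and all zones together span 420.0 Mb. The zones were set by these positions, and no peak value entered the rule. They were, however, chosen with earlier results of these data known, and no map of the centromeric histone was used here to place them. A peak belonged to a zone when its midpoint lay inside it. The zones held 15780 of the 1226985 wheat peaks in 3 lists, and 694570 of those peaks lay on part 1, the section of each chromosome that contains the zone. By list, the zones held 11755 H3K27me3 peaks, 2023 H3K4me3 peaks and 2002 H3K4me3 peaks from a library treated with duplex-specific nuclease (DSN).

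The study aimed to rebuild the core genome of plants with large genomes from chromatin immunoprecipitation and sequencing (ChIP-seq) reads. The wheat material was seedlings of the cultivar Chinese Spring, the reference cultivar of bread wheat, germinated for 3 days in water at 22 °C and grown for 9 days in soil under long days. Above-ground and underground parts were collected, so each library mixes all tissues of the seedling. Each of the 3 groups had 1 library, namely H3K27me3, H3K4me3, and H3K4me3 whose library was normalized with a DSN kit, and all were read as 151 bp pairs. The H3K4me3 library without DSN is called untreated below. No input list of wheat was among the files used here. With 1 library per group there is no replicate error. Values over chromosomes are therefore given as mean ± SD to describe how chromosomes differ, and no test was made.

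A centromere is the place where the kinetochore forms, on nucleosomes that carry the centromeric histone CENH3 in place of ordinary H3. In wheat and other cereals it is built of satellite and retrotransposon repeats, and it sits in a wide pericentromeric block with few genes and little recombination. H3K4me3 marks the starts of active genes, and H3K27me3 is set by Polycomb proteins over silenced genes, so both marks follow genes more than repeats. Bread wheat is hexaploid, with A, B and D subgenomes whose matching chromosomes are called homoeologous. A duplex-specific nuclease cuts double-stranded DNA, and in library normalization it removes the abundant fragments that pair up again fastest.

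Both marks were sparser in the zones than along the remainder of part 1, on every chromosome and in all 3 lists. H3K27me3 peaks covered 3.27% ± 0.777 of a zone (SD over 21 chromosomes), from 2.02% on 5A to 4.97% on 4D, with a median of 3.27%. The remainder of part 1 was covered to 6.61%, so the zones were 2.02-fold lower. Untreated H3K4me3 peaks covered 1.55% ± 0.373 of a zone, from 1.09% on 6A to 2.59% on 3B, with a median of 1.49%. Here the remainder was covered to 4.28%, and the zones were 2.77-fold lower. After DSN treatment the zones were covered to 1.12% ± 0.272, from 0.701% on 2A to 1.84% on 3B, with a median of 1.05%. The remainder was covered to 3.61%, which made the zones 3.23-fold lower in that list.

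The number of peaks was lower in the zones as well. The zones held 28.0 H3K27me3 peaks per Mb against 48.1 in the remainder, 4.82 H3K4me3 peaks per Mb against 13.1, and 4.77 peaks per Mb against 13.2 after DSN. They make up 4.40% of the length of part 1, but they held 2.61% of its H3K27me3 peaks, 1.66% of its H3K4me3 peaks and 1.64% of its DSN peaks. With all peaks, the ratio of H3K27me3 to H3K4me3 cover was 2.11 in the zones and 1.54 in the remainder. Which mark differed more depended on the peaks kept. With all peaks the ratio of zone to remainder cover was 0.495 for H3K27me3 and 0.361 for H3K4me3. Among peaks of score 100 or more it was 0.273 and 0.359, and with equal numbers of top-scoring peaks per list 0.110 and 0.361, so the order of the marks turned.

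The contrast was smaller against nearby chromatin than against the whole remainder, which includes the distal ends of the chromosomes. Against the neighbouring chromatin, between 10 and 50 Mb from the centre, the zones were 1.33-fold lower for H3K27me3, 1.37-fold lower for H3K4me3 and 1.502-fold lower for the DSN list. That neighbouring chromatin was covered to 4.36%, 2.12% and 1.68% in the 3 lists, and its ratio of H3K27me3 to H3K4me3 cover, 2.06, was close to that of the zones. For each mark 1 zone was not lower than its own neighbourhood. The 4D zone reached 1.01 times its neighbourhood for H3K27me3, and the 3B zone reached 1.28 times for H3K4me3 and 1.15 times for DSN.

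Within the zones, mean cover over the chromosomes was lowest next to the centre and rose outwards in all 3 lists. H3K27me3 covered 2.28% of the bases within 2 Mb of the centre, 3.09% between 2 and 5 Mb and 3.78% between 5 and 10 Mb. H3K4me3 covered 0.961%, 1.54% and 1.79% over the same steps, and the DSN list 0.675%, 1.10% and 1.30%. The lowest 1 Mb bin in the mean profile was the same in each list, the one from 1 to 2 Mb above the centre, with 1.87% for H3K27me3, 0.871% for H3K4me3 and 0.567% for DSN. At the zone edge there was no step that would set the zone apart. The outermost bins inside, at 9 to 10 Mb, had 3.73%, 1.71% and 1.29% cover, and the first bins outside, at 10 to 11 Mb, had 4.05%, 2.10% and 1.61%.

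**Figure D1:**
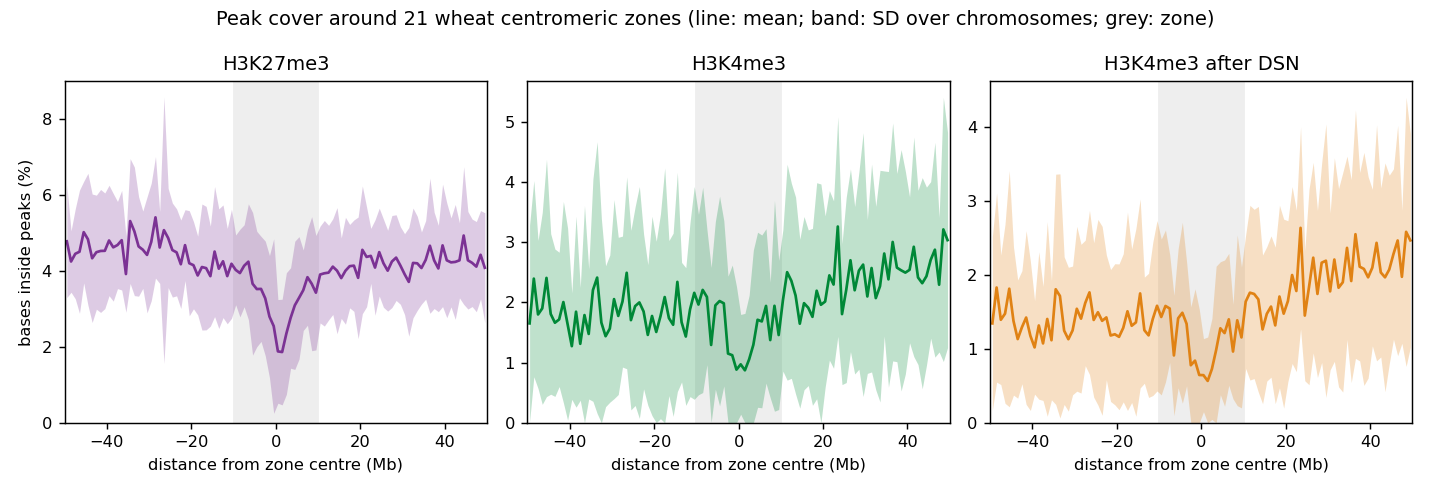
Percent of bases inside peaks (vertical axis, a separate scale in each panel) in 1 Mb bins against distance from the zone centre in Mb, for H3K27me3, H3K4me3 and H3K4me3 after DSN. The line is the mean and the coloured band the SD over 21 chromosomes, cut off at 0, and grey marks the zone; each line dips to its lowest point, 1.87%, 0.871% and 0.567%, just above the centre.

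The chromosomes differed widely in the innermost bases. Within 2 Mb of the centre H3K27me3 cover ran from 0.395% on 4A through a median of 1.92% to 5.66% on 1D. H3K4me3 cover ran from 0.138% on 2A through a median of 0.759% to 3.72% on 3B, and DSN cover from 0.149% on 2A to 2.44% on 3B. These highest values, on 1D and 3B, were above the cover of the whole zone there. The rise of the mean away from the centre thus did not hold on every chromosome. In bins of 1 Mb the SD over chromosomes of H3K27me3 cover was 1.65% at 0 to 1 Mb and 0.978% at 10 to 11 Mb. For H3K4me3 it was smaller at the centre, 0.836% against 1.15% at 10 to 11 Mb, beside a lower mean.

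The zone label was checked by asking where along part 1 the marks were lowest. Part 1 was divided into 454 consecutive windows of 20 Mb, 21 to 23 on each chromosome, and the zone was ranked among them. For H3K27me3 the zone was the lowest window on 17 of 21 chromosomes and among the lowest 3 on 19. It was the lowest on 11 chromosomes for H3K4me3 and on 12 for DSN, and among the lowest 3 on 20 for both. Among these 20 Mb windows the poorest ranks were the seventh of 21, for H3K27me3 on 4B, and the eighth of 21, for H3K4me3 on 3B. The 4D zone was sixth for H3K27me3, and on that chromosome the lowest window of any placement was centred 25.0 Mb away from the given centre. On 5B the zone ranked 3 from the lowest, and the lowest window was centred 18.0 Mb away. On 4B and 5D the lowest window was centred 10.0 Mb and 8 Mb away and so overlapped the zone. On 4D and 5B most or all of the lowest H3K27me3 window thus lay outside the given zone. The H3K4me3 lists placed their lowest window less closely. For untreated H3K4me3 it was centred within 10 Mb of the given centre on 10 of 21 chromosomes. Its median distance was 16.0 Mb, and the farthest was 136 Mb, on 4A. For DSN it was within 10 Mb on 13 chromosomes, and the farthest was 73.0 Mb away, on 5A. With windows of 10 Mb, the centred window was the lowest on 16 chromosomes for H3K27me3, on 10 for H3K4me3 and on 11 for DSN. Its poorest ranks were 15 of 45 for H3K27me3 on 4D, 21 of 44 for H3K4me3 and 15 of 44 for DSN on 3B. On 5B the lowest H3K27me3 window of 10 Mb was centred 134 Mb away. The files hold no independent mark of the centromere that could decide its place.

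H3K27me3 in the zones differed by subgenome, in the order A, B, D. The 7 zones of subgenome A were covered to 2.46% ± 0.388 (SD, n = 7 chromosomes), those of B to 3.39% ± 0.382 and those of D to 3.97% ± 0.601. The A zones ranged from 2.02% to 3.17% and the D zones from 3.27% to 4.97%, so these groups did not overlap, while B overlapped both. The D mean was 1.61 times the A mean.

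The order was nearly the same in each homoeologous group. In group 4 the A, B and D zones were covered to 2.61%, 3.91% and 4.97%, the widest range in percent of any group. In group 5 they were covered to 2.02%, 3.91% and 4.36%, and in group 2 to 2.43%, 3.29% and 4.15%. These groups had 5A, the lowest zone of all, and 4D, the highest. Group 1 had 2.54%, 3.16% and 4.06%, group 6 had 2.05%, 3.21% and 3.51%, and group 3 had 2.39%, 3.32% and 3.45%. Group 7 was the exception, with 3.17% on 7A, 2.92% on 7B and 3.27% on 7D. D was the highest in 7 of 7 groups and A the lowest in 6 of 7. The 3 zones of lowest H3K27me3 cover were all of subgenome A, namely 5A, 6A and 3A, and the 3 of highest cover were all of subgenome D, namely 4D, 5D and 2D.

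As a ratio, the subgenome difference was widest next to the centre. In the innermost 1 Mb on either side, A zones were covered to 1.05%, B zones to 2.51% and D zones to 3.09%, a D to A ratio of 2.93. The ratio was 2.503 within 2 Mb, 1.63 from 2 to 5 Mb, 1.47 from 5 to 10 Mb and 1.34 from 10 to 50 Mb, but not every finer step was lower than the one before it, with 1.80 at 8 to 9 Mb and 1.56 at 11 to 15 Mb. In percent of bases the difference was also widest next to the centre among these wider steps, and it changed less beyond 2 Mb. A and D chromosomes were covered to 1.18% and 2.96% within 2 Mb, and to 2.26% and 3.69% from 2 to 5 Mb. They had 3.09% and 4.54% from 5 to 10 Mb, and 3.77% and 5.05% from 10 to 50 Mb. The finer step at 8 to 9 Mb had a wider difference, with 2.71% and 4.89%, and the A and D remainder had 5.80% and 7.35%. Over the whole remainder of part 1 the D to A ratio was 1.27, the A and D chromosomes overlapped there, and D was highest in 4 of 7 groups. From 10 to 50 Mb the A and D chromosomes did not overlap either, and A, B and D stood in that order in 7 of 7 groups. The order was therefore shared with the wider pericentromeric region, and its ratio was larger inside the zones. Peak number carried it, with a D to A ratio of 1.55 in peaks per Mb, while the median width (ratio 1.04) and the median score (ratio 1.02) hardly differed.

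For H3K4me3 that order was less regular, with A, B and D in that order in 4 of 7 groups, in the untreated list and in the DSN list. Its A zones were covered to 1.37% ± 0.241, B zones to 1.68% ± 0.488 and D zones to 1.59% ± 0.328 (SD, n = 7 chromosomes), and the subgenomes overlapped. The D to A ratio was 1.16 in the zones and 1.31 in the remainder, where D was highest in 7 of 7 groups, against 4 of 7 in the zones. In the neighbouring chromatin the ratio was 1.21, with D highest in 3 of 7 groups and B in 4. D was highest there in 3 of 7 groups in the DSN list as well. The D mean was below the B mean in the zones (ratio 0.947) and in the neighbouring chromatin (0.984), and above it in the remainder (1.25). The lack of a regular lead of D was thus shared with the neighbouring chromatin. In the zones A was the lowest of its group in 5 of 7, and B was above A in 6 of 7. The 3 zones of highest cover were 3B (2.59%), 7B (2.10%) and 5D (2.08%), and the 3 of lowest cover were 6A (1.09%), 2A (1.10%) and 4A (1.16%). The DSN list had the same zones at both ends, with 1.84% on 3B, 1.56% on 5D and 1.47% on 7B, and with 0.701% on 2A, 0.758% on 6A and 0.866% on 4A. Its subgenome means were 0.986% for A, 1.21% for B and 1.15% for D.

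**Figure D2:**
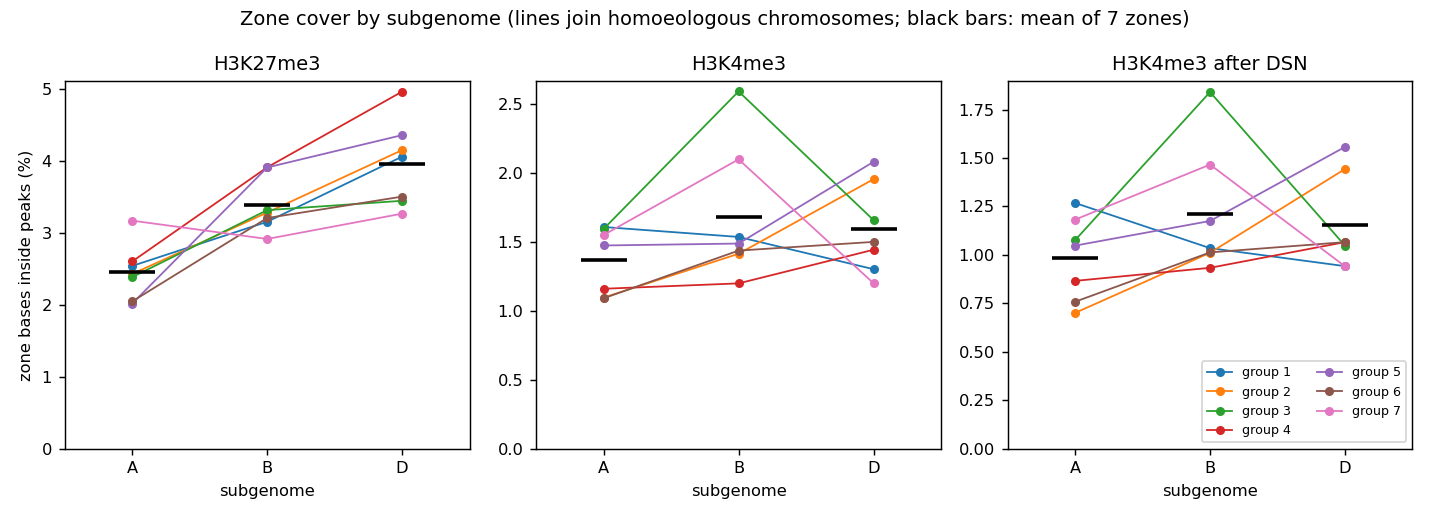
Percent of zone bases inside peaks (vertical axis from 0, a separate scale in each panel) for the A, B and D subgenomes, 1 point per zone, with lines joining homoeologous chromosomes and black bars at the mean of 7 zones. For H3K27me3 all lines but that of group 7 climb from A to D (means 2.46%, 3.39% and 3.97%), whereas the H3K4me3 and DSN lines cross.

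Across the 21 zones, the cover of H3K27me3 and that of H3K4me3 were only loosely related (Pearson r 0.238, Spearman rho 0.214), whereas the H3K4me3 lists ranked the zones alike (r 0.970, rho 0.939). These coefficients describe 21 zones that share 1 library per list, and no p was computed for them. The order of the zones for H3K4me3 was thus nearly that of the DSN list, and knowing a zone's H3K4me3 cover told little of its H3K27me3 cover.

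H3K27me3 peaks in the zones were narrow and low in score, as they were in the neighbouring chromatin. The median width was 1044 bp in the zones, 1065 bp from 10 to 50 Mb and 1128 bp in the whole remainder, and it was below the remainder on 21 of 21 chromosomes. Peaks wider than 2 kb numbered 689, or 5.86% (95% Wilson interval 5.45 to 6.30), against 13.1% of the remainder and 6.29% from 10 to 50 Mb. The score is the authors' peak-caller value, with a scale that the headers do not define, and it served here to rank peaks within a list. In the H3K27me3 list 2466 zone peaks, or 20.98% (20.3 to 21.7), scored 100 or more, against 40.6% in the remainder and 22.6% from 10 to 50 Mb. At 3100 or more, where scores pile up in each list, stood 6 zone peaks, or 0.0510%, against 0.939% of the remainder. The median score, 69.4 in the zones, was below the remainder of the same chromosome on 20 of 21 chromosomes, with 4A as the exception. Broad and high-scoring H3K27me3 peaks were thus present in the zones but made up a smaller share than in the whole remainder, as they did from 10 to 50 Mb. Neither width nor score changed much towards the centre, at a median of 1032 bp and 68.3 within 2 Mb.

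H3K4me3 peaks in the zones were also narrower at the median than in the remainder, at 0.911 times its width, against 0.926 times for H3K27me3. The median was 2547 bp in the zones, 2650 bp from 10 to 50 Mb and 2795 bp in the remainder. It was below the remainder on 17 of 21 chromosomes and above it on 4D, 5D, 6B and 7B. The spread of widths was larger in the zones, since the 10th percentile was 985 bp against 1148 bp in the remainder and the 90th percentile 6142 bp against 5882 bp. Peaks wider than 5 kb numbered 329, or 16.3% (14.7 to 17.9), against 15.8% in the remainder, a share near the background. In score, 1684 peaks, or 83.2%, reached 100 against 85.1% in the remainder, and 563, or 27.8%, reached 3100 against 30.9%. The middle of the distribution differed more, with a median score of 821 in the zones, 1410 in the remainder and 1809 from 10 to 50 Mb. Chromosomes varied widely in this median, from 330.5 on 3D to 2937 on 4A, and it was below the remainder on 13 of 21.

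After DSN treatment the zone peaks were narrower than elsewhere. Their median width was 2092 bp, against 2320 bp from 10 to 50 Mb and 2466 bp in the remainder, and it was below the remainder on 21 of 21 chromosomes. Peaks over 5 kb numbered 89, or 4.45% (3.63 to 5.44), against 8.54% in the remainder and 6.25% from 10 to 50 Mb. A score of 100 was reached by 1503 peaks, or 75.1%, against 81.1% in the remainder and 79.8% from 10 to 50 Mb. A score of 3100 was reached by 420, or 20.98%, against 20.4% and 24.1%. The median score was 597.6 in the zones, 1039 in the remainder and 1503 from 10 to 50 Mb. The DSN list thus held a smaller share of broad peaks in the zones than in the remainder, with the neighbouring chromatin in between. The untreated list did not hold a smaller share in the zones.

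**Figure D3:**
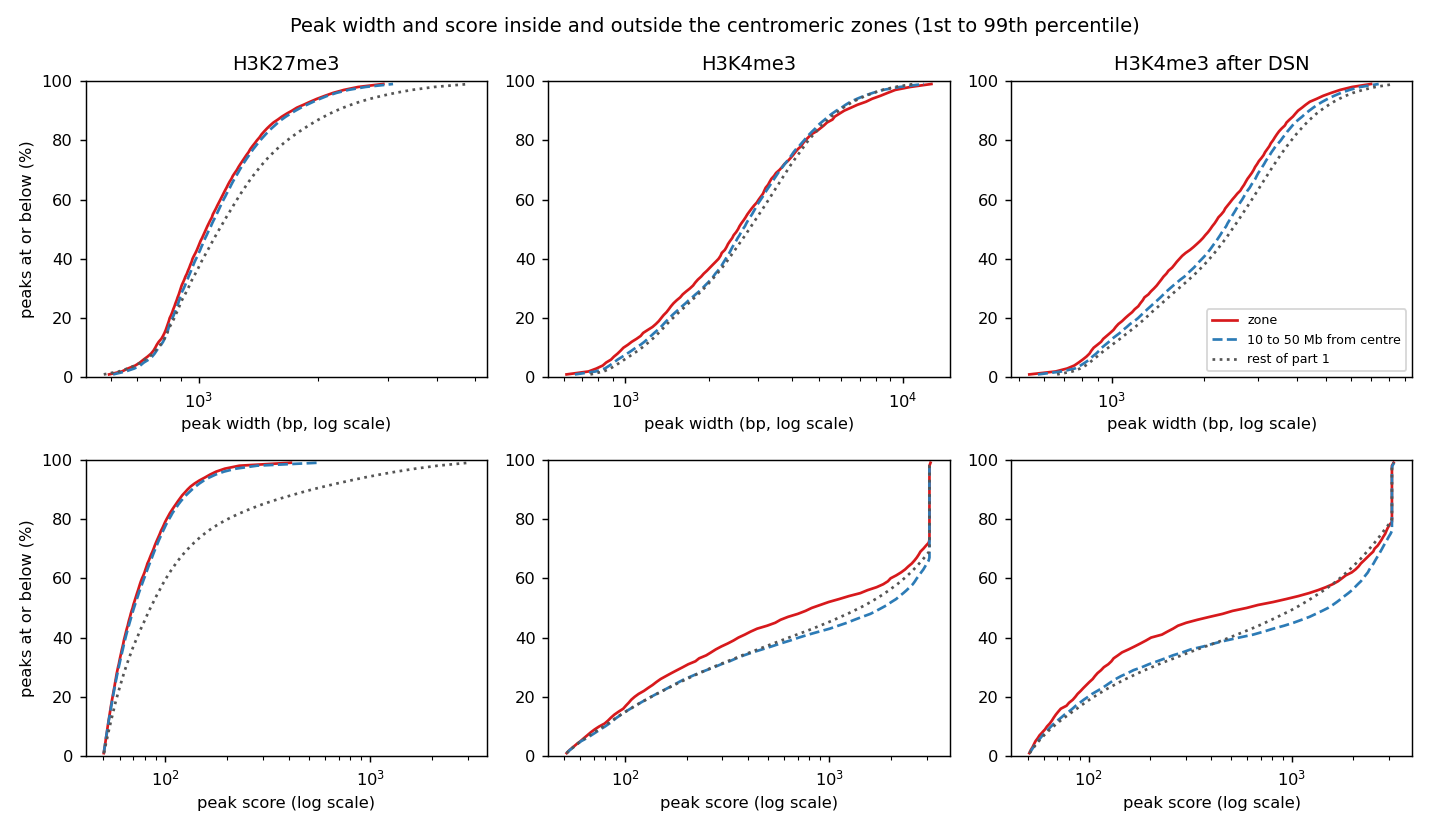
Percent of peaks at or below a given width in bp (top) or score (bottom), on logarithmic horizontal axes from the 1st to the 99th percentile, for zone peaks (red), peaks 10 to 50 Mb from the centre (blue, dashed) and the remainder of part 1 (grey, dotted). For H3K27me3 the red and blue curves nearly coincide and reach their top far left of the grey one; for both H3K4me3 lists the red score curve lies above the others at middle scores, and the vertical rise at the right is the pile of peaks at 3100.

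The marks met less often in the zones. Of the 2023 untreated H3K4me3 peaks, 484 shared at least 1 bp with an H3K27me3 peak, which is 23.9% (95% Wilson interval 22.1 to 25.8), against 50.8% in the remainder of part 1. The share was below that of the remainder on 21 of 21 chromosomes, and ran from 18.0% on 2D to 35.7% on 6B. From 10 to 50 Mb it was 26.4% (25.6 to 27.3), so here too the zones stood close to their neighbourhood. Of the DSN peaks, 437 met an H3K27me3 peak, or 21.8% (20.1 to 23.7), against 48.3% in the remainder. Seen from the other mark, 538 of the 11755 H3K27me3 peaks met an untreated H3K4me3 peak, or 4.58% (4.21 to 4.97), against 17.2% in the remainder and 5.51% from 10 to 50 Mb.

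There was also less H3K27me3 to meet in the zones. The bases of H3K4me3 peaks lay inside H3K27me3 peaks 2.54 times as often as the H3K27me3 cover of the zones alone would give, against 4.10 times in the remainder and 2.43 times from 10 to 50 Mb. The share that met H3K27me3 was similar in the subgenomes, with 25.0% in A, 24.1% in B and 22.8% in D, although D zones had more H3K27me3. H3K27me3 peaks that met H3K4me3 scored higher than the others, with a median of 98.0 against 68.7. In whole seedlings, a shared base can come from different cells, which cannot be told apart from both marks in 1 cell.

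The zone peaks of highest rank show both sides of this. The 3 H3K27me3 zone peaks of highest score, at 258785835 to 258786973 on 5A, 340960885 to 340964089 on 3B and 318966386 to 318967786 on 2A, lay wholly inside untreated H3K4me3 peaks. The widest H3K27me3 peak of the zones, 6.47 kb at 341152565 to 341159031 on 3B, was covered to 68.6% by H3K4me3, and the second, 5.49 kb at 220292677 to 220298164 on 6D, to 93.8%. The third, 5.10 kb at 207446986 to 207452087 on 6D, had no H3K4me3 in either list. In contrast, the 3 H3K4me3 zone peaks of highest score, at 299706007 to 299710023 on 4B, 263895320 to 263898455 on 4A and 336934444 to 336936204 on 3B, held no H3K27me3 and were covered by DSN peaks to 97.3%, to 98.98% and, for the last, in full. These 3 H3K4me3 peaks do not stand for all H3K4me3 peaks of the zones. Zone H3K4me3 peaks that met H3K27me3 had a median score of 1194, against 669.6 for the others. The neighbouring chromatin had the same order, at 2068 against 1662, and the whole remainder the opposite, at 1347 against 1554. Coordinates are those of the files, counted from 1 along part 1. The genome build is not given in the sources used here, so no gene or sequence could be tied to them.

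H3K4me3 without H3K27me3 was the commoner state in the zones, as it was in the neighbouring chromatin. There 8227 of 11184 untreated peaks met no H3K27me3 peak, against 1539 of 2023 in the zones. On both H3K4me3 lists, 1145 untreated zone peaks, or 56.6%, had no H3K27me3 peak, and 426 had one. In the remainder the first class was 39.8%, and it was not counted in the neighbouring chromatin. The 3 widest peaks of that class were 19.8 kb at 323401245 to 323421073 on 3A, 14.8 kb at 349291399 to 349306222 on 3B and 13.8 kb at 202202162 to 202215959 on 5B. DSN peaks covered 71.5%, 84.2% and 81.9% of these. The widest H3K4me3 peak of any zone, 27.7 kb at 344280721 to 344308382 on 3B, lay 1.71 Mb from the centre, and 66.5% of it was covered by DSN peaks and 4.04% by H3K27me3. The next after the 3A peak, 18.6 kb at 333724078 to 333742697 on 2A, was covered to 55.7% by DSN peaks and to 6.37% by H3K27me3.

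DSN treatment went with less H3K4me3 cover, and more so in the zones. The DSN list covered 0.721 times as many zone bases as the untreated list, against 0.842 in the remainder and 0.792 from 10 to 50 Mb. The ratio ran from 0.632 on 3D to 0.789 on 5B over the zones (SD 0.0453, n = 21 chromosomes), and from 0.825 on 1B to 0.852 on 2D over the remainder. These ranges did not overlap, and the zone was lower on 21 of 21 chromosomes, and lower than its neighbourhood on 18. The ratio rose from 0.702 within 2 Mb of the centre through 0.717 and 0.727 to 0.762 at 10 to 20 Mb, 0.792 at 20 to 30 Mb and 0.810 at 30 to 40 Mb. At 40 to 50 Mb it was 0.803.

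The number of peaks did not follow, with a DSN to untreated ratio of 0.990 in the zones and 1.004 in the remainder. Of the untreated zone peaks, 1571 were met by a DSN peak, or 77.7% (75.8 to 79.4), against 85.2% in the remainder and 83.1% (82.4 to 83.8) from 10 to 50 Mb. The other 452 were narrow and low, with a median width of 1297 bp and a median score of 92.8, against 2990 bp and 2140 for those that were met. In reverse, 1898 DSN peaks, or 94.8%, were met by an untreated peak, against 94.6%, so the DSN list added few places in the zones as elsewhere. Where 1 untreated peak met exactly 1 DSN peak, the DSN peak was 0.910 times as wide at the median, over 1130 pairs in the zones and, at the same value, over 80710 pairs in the remainder. These single pairs were thus narrowed alike in the zones and outside, although the cover ratio was lower in the zones. Depth is not known for either library, and its part in the difference was not tested.

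**Figure D4:**
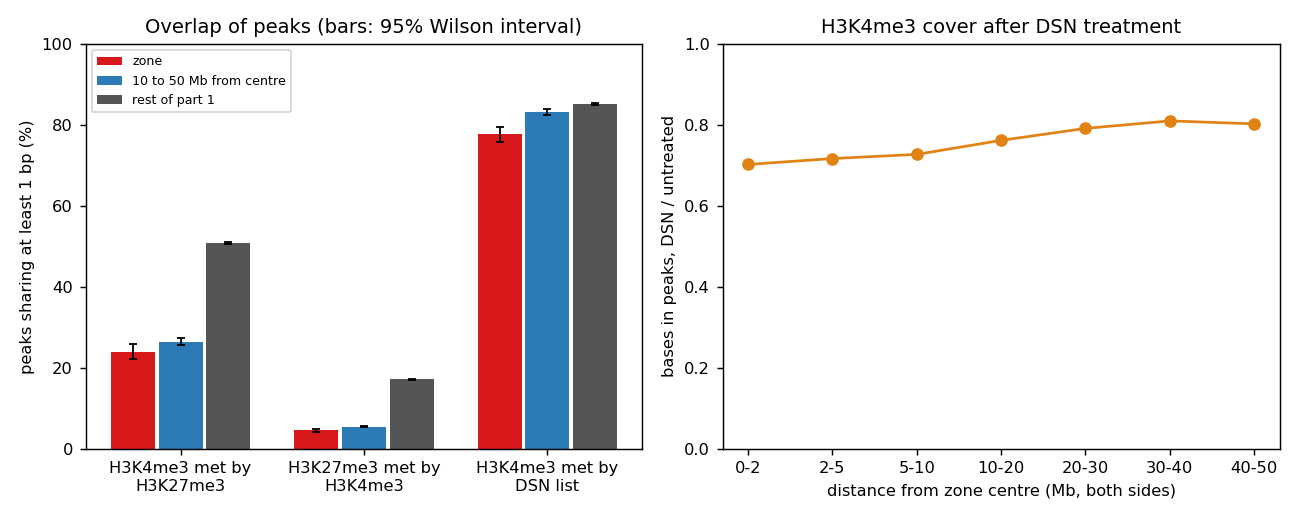
Left, percent of peaks that share at least 1 bp with a peak of another list, in the zones (red), 10 to 50 Mb from the centre (blue) and the remainder of part 1 (grey), with 95% Wilson intervals for counting error. Right, bases inside DSN peaks divided by bases inside untreated H3K4me3 peaks against distance from the centre, summed over both sides and 21 chromosomes; the ratio climbs from 0.702 next to the centre to 0.810 at 30 to 40 Mb.

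Spacing in the zones was uneven for H3K4me3, with many short gaps and some very long ones. The median gap between neighbouring untreated peaks was 7.89 kb in the zones, shorter than the 27.2 kb from 10 to 50 Mb and the 11.8 kb in the remainder. In the DSN list it was 13.4 kb in the zones, below the 27.9 kb from 10 to 50 Mb but above the 11.4 kb in the remainder. At the same time 1 untreated gap in 10 was longer than 632 kb, against 438.5 kb from 10 to 50 Mb. For H3K27me3 the median gap was longest in the zones, at 17.2 kb against 14.2 kb from 10 to 50 Mb and 7.03 kb in the remainder. Runs were then counted, each of at least 5 peaks with gaps under 10 kb, a definition chosen after the gaps had been seen. With runs of any length the zones did not stand above the remainder, since 68.4% of untreated zone peaks had a neighbour within 10 kb, against 71.1% in the remainder and 63.3% from 10 to 50 Mb. Runs of at least 5 held 688 untreated zone peaks, or 34.0%, against 22.0% from 10 to 50 Mb and 20.4% in the remainder. In the DSN list they held 557 peaks, or 27.8%, against 18.8% and 19.97%. For H3K27me3 the order was the opposite, at 10.5% in the zones, 13.1% from 10 to 50 Mb and 36.2% in the remainder.

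The 99 untreated runs lay in 21 of 21 zones, with 12 on 3B, 2 on 4B and a median of 5, and their number was 30 in A, 37 in B and 32 in D. Peaks in these runs had a median score of 229 and a median width of 2380 bp, against 2173 and 2587 bp for the other 1335 zone peaks. Fewer of them were met by DSN, 60.2% against 86.7%, and fewer by H3K27me3, 18.3% against 26.8%. Runs supplied 36.0% of the zone bases under H3K4me3 peaks, and 52.8% of those bases were inside a DSN peak, against 74.8% for the other peaks. The same held outside, since from 10 to 50 Mb the runs had a median score of 234 and 55.3% of their bases inside DSN peaks, against 79.0% for the other peaks there. Low-scoring clusters that DSN covered less were thus found in the neighbouring chromatin too, and in the zones they made up a larger share of the H3K4me3 bases, 36.0% against 21.8%.

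The longest run by number of peaks, 20 peaks over 72.5 kb at 218381640 to 218454178 on 6D, had a median score of 107. Peaks covered 58.7% of it, the DSN list 25.5%, and H3K27me3 none. The next were 15 peaks over 45.0 kb at 338727902 to 338772872 on 2B and 13 peaks over 60.8 kb at 321263141 to 321323910 on 6B. In the DSN list the longest run, 14 peaks over 50.7 kb at 344271321 to 344322041 on 3B, spanned the broadest untreated peak of the zones, so what the untreated list holds as 1 wide peak the DSN list holds there as several.

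Empty stretches were longer for H3K4me3 than for H3K27me3, whose list held more peaks. The longest untreated H3K4me3 gap of a zone ran from 1105 kb on 5B to 3138 kb on 4A, with a median of 2121 kb over the zones. For the H3K4me3 lists the longest gaps of part 1 lay outside the zones, at 3351 kb for untreated H3K4me3 and 3941 kb for DSN. The 3 longest zone gaps were 266962799 to 270100787 on 4A, 342644649 to 345657796 on 2B (3013 kb) and 326988038 to 329711525 on 6B (2723 kb). The DSN list had nearly the same stretches on 4A (266962856 to 270100719, 3138 kb) and 2B (342314296 to 345657815, 3344 kb), and another at 250563784 to 253592536 on 5A (3029 kb). The longest H3K27me3 gap of a zone ran from 272.5 kb on 2D to 1796 kb on 6B, with a median of 630 kb. For this mark the longest gap of part 1 lay in a zone, since the longest in the remainder was 1582 kb. The 3 longest H3K27me3 zone gaps were 325217299 to 327013126 on 6B, 264364143 to 265681667 on 4A (1318 kb) and 308556637 to 309759851 on 7B (1203 kb). The middle of the longest H3K27me3 gap was within 2 Mb of the centre in 14 of 21 zones, and that of the longest H3K4me3 gap in 9.

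On 6B the longest gaps of both marks overlapped at their ends, since the H3K27me3 gap ended at 327013126 and the H3K4me3 gap began at 326988038. That zone held the single 1 Mb window of the 420 zone windows with no H3K27me3 peak, against 0 of 9114 windows in the remainder. For H3K4me3, 58 of 420 zone windows had no peak, or 13.8%, and 23 of the 84 windows within 2 Mb of the centre, or 27.4%. In the remainder it was 125 of 9114, or 1.37%, but the remainder includes the distal ends of the chromosomes. In the neighbouring chromatin a share over all windows was not taken. Its emptiest 1 Mb bin, from 14 to 15 Mb above the centre, lacked untreated peaks on 4 chromosomes, and every other bin there on at most 3. In the zones the emptiest bin, from 1 to 2 Mb above the centre, lacked them on 8. The DSN list was similar, with 60 of 420 zone windows and 24 of the 84 nearest the centre. Yet 1 of the 3 DSN zone peaks of highest score, 3.13 kb at 325042056 to 325045189 on 6B, lay 0.0436 Mb from the centre, below the H3K27me3 gap, and the untreated list covered 98.9% of it. The other peaks at the head of the DSN list, at 178317176 to 178320475 on 4D and 179943171 to 179945325 on 5D, were covered by untreated peaks to 92.7% and in full, and none of the 3 held H3K27me3. The widest DSN zone peaks were 13.0 kb at 264802010 to 264814967 on 2D, 12.6 kb at 236951306 to 236963924 on 1B and 9.91 kb at 191898277 to 191908182 on 5D. Untreated peaks covered 99.7% of the 2D peak, 99.9% of the 1B peak and all of the 5D peak.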

How the data were processed

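Peak lists of 3 wheat ChIP-seq libraries were used. The rice data of the series were not used here. Peaks were called with MACS, 1 list per library, per the file headers. Each peak carries a score that the authors deposited as the caller gave it, from 50 to 3233. FastQC and BWA are named for all 3 libraries, and TopHat2 for the H3K4me3 libraries, per the submitters' processing notes, without versions. Not given in the sources used here are the genome build, the peak threshold, the control library and the treatment of reads that match many places. Sequencing depth is unknown, so cover cannot be corrected for it, and cover of different lists is not compared as enrichment.

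Peaks of a list did not overlap one another on part 1, so merging them for cover changed nothing. Bases were clipped at zone edges, which 1 H3K27me3 peak crossed. The length of part 1 was taken as its furthest peak end (438.7 to 476.2 Mb). Peaks met when they shared at least 1 bp. The 95% Wilson intervals beside shares speak to counting error alone. Named items are, per list, the 3 zone peaks of highest score (ties by width), the 3 widest, the 3 zones of highest and of lowest cover and the 3 longest gaps, plus the 3 widest H3K4me3 peaks on both lists without H3K27me3. Runs, and the reference of 10 to 50 Mb, were added after the data had been seen, and so were the width limits of 2 and 5 kb. The zones and measures were chosen with earlier results of these data known. Scripts used Python 3.11.15, numpy 2.4.6, pandas 2.3.3, scipy 1.17.1 and matplotlib 3.10.9, and were checked on simulated peaks. Alternatives were a smaller zone, a score minimum of 100, equal peak numbers, part 1 without its first 50 Mb, an overlap of at least 50% and the 10 to 50 Mb reference.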

Additional observations from a re-analysis of the deposited data

How the results depend on the processing

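Of 116 values under other settings, 88 stayed close to the reported value, 28 moved by more than the SD over chromosomes and 0 changed direction. Close meant within that SD. For 3 counts of chromosomes under windows of 10 Mb a limit on the ratio of the counts was used instead, and each count changed by 1. These counts, and the lowest bins of the profile, had no direction that could change. The 88 include values that could hardly move. Equal peak numbers left the H3K4me3 and DSN values unchanged, since these lists held 223970 and 223666 peaks. Counting zone peaks by 1 shared bp could not move density, as 1 peak crossed a zone edge. The SD was wide for scores, so a DSN score ratio of 0.238 counted as close to 0.575 (SD 0.525). With peaks of score 100 or more, the zone to remainder ratio for H3K27me3 was 0.273 in cover (0.495 with all peaks), 0.301 in peak density (0.582) and 0.999 in median width (0.926). The same setting gave 0.328 for the share of untreated H3K4me3 peaks that met H3K27me3 (0.471) and 0.324 for DSN peaks (0.452). With equal peak numbers per list the H3K27me3 cover ratio was 0.110. Without the first 50 Mb of each chromosome it was 0.652, with 0.961 for width and 0.922 for score (0.819). A half-width of 2 Mb gave H3K27me3 density 0.411, H3K4me3 cover 0.229 (0.361) and density 0.221 (0.367), and DSN cover 0.192 (0.309) and density 0.231 (0.362). It also gave D to A ratios of 2.503 for H3K27me3 (1.61) and 1.65 for H3K4me3 (1.16). Requiring that at least 50% of the peak be covered gave 0.294 for H3K4me3 peaks with H3K27me3, and 0.833 for untreated peaks with DSN (0.911). Against the 10 to 50 Mb reference, chosen after seeing the data, H3K27me3 had ratios of 0.751 in cover, 0.768 in density, 0.980 in width and 0.985 in score. H3K4me3 had 0.732 in cover and 0.724 in density, DSN had 0.666 and 0.720, and the shares that met H3K27me3 had 0.905 for H3K4me3 and 0.884 for DSN. The cause of these shifts was not tested. The width of H3K27me3 peaks was thus lower in the zones with all peaks and equal to the remainder among peaks of score 100 or more.

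No paired analysis was possible because each wheat group had 1 library, and for the same reason no library was left out in turn. Limits that apply throughout are the unknown depth, the lack of a wheat input among the files used here, a score with no stated scale, and centres given to the nearest 1 Mb.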

Other observations

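The sides of the centre were not equal for H3K27me3. The 10 Mb below the centre were covered to 3.57% ± 0.936 (SD, n = 21 chromosomes) and the 10 Mb above it to 2.97% ± 0.804, and the upper side was the higher one on 5 of 21 chromosomes. For H3K4me3 the sides had 1.67% ± 0.486 and 1.43% ± 0.427, with the upper side higher on 9 of 21 chromosomes, and for DSN 1.20% ± 0.319 and 1.03% ± 0.333, also with 9 of 21. Below means towards the start of part 1.

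Broad peaks occurred next to the centre as well. Among peaks with a midpoint within 1 Mb of it, a set chosen after the values were seen, the widest H3K27me3 peak was 4.30 kb at 317885021 to 317889323 on 3A, 0.113 Mb below the centre, with no H3K4me3 on either list. The widest H3K4me3 peak in that span was 16.4 kb at 344997135 to 345013519 on 3B, of which DSN peaks covered 77.6% and H3K27me3 peaks 12.8%.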
